A study of Mus musculus with 3 samples.

Results

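Slc6a2, Dbh and Phox2a are 3 genes by which noradrenergic neurons are recognised, chosen here by symbol and with earlier results of the same libraries known. They are 3 of the 49585 genes listed for each library, and each symbol had 1 row. The libraries came from total RNA of midbrain, frozen at postnatal day 3, from C57BL/6 mice. There were 2 libraries whose genotype is given as FGR, letters that no label explains, and 1 wild-type (WT) library. No allele, treatment, litter or sex is given, nor do the labels say whether separate animals gave the FGR libraries. Sex-linked transcripts, given below, differed between the FGR libraries, so they were not repeats of the same RNA. The spread of WT could not be measured, and anything else particular to that library cannot be told apart from the group.

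Noradrenergic neurons of the brain sit in small clusters of the pons and medulla, the largest of which is the locus coeruleus, just behind the midbrain, and their axons reach most of the brain. Tyrosine hydroxylase (Th) and aromatic amino acid decarboxylase (Ddc) make dopamine in the cytosol, the vesicular transporter Slc18a2 loads it into vesicles, and dopamine beta-hydroxylase (Dbh) turns it into noradrenaline inside them. The transporter Slc6a2 takes released noradrenaline back up. The paired-like homeodomain factor Phox2a is needed in mice for the locus coeruleus to form and helps to switch on Dbh. Dopamine neurons of the midbrain share Th, Ddc and Slc18a2 but lack Dbh and Slc6a2.

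Because homeodomain factors such as Phox2a bind sites around an ATTA core, the start regions of Dbh and Phox2a are shown with each ATTA in capitals. Both are RefSeq sequences of build GRCm38.p6 from 250 bases before to 50 after the gene start, and Slc6a2 was not among them. Dbh lies at chr2:27165257-27165556 and Phox2a at chr7:101818063-101818362, both on the plus strand.
Dbh: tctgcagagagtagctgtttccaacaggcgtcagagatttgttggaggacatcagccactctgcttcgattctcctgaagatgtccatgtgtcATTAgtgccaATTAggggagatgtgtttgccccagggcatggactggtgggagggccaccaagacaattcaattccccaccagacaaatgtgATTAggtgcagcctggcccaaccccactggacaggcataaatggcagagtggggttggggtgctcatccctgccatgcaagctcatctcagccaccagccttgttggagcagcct
Phox2a: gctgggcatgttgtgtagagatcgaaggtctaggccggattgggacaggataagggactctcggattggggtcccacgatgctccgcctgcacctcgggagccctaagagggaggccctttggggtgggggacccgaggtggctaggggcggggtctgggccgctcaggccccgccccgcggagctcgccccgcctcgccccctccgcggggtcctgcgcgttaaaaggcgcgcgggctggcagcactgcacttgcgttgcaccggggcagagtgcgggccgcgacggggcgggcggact
The Dbh window held 3 ATTA cores on the printed strand, starting 157, 147 and 65 bases before the gene start, and none on the other. The Phox2a window held 0 on either strand. Of 32851 promoters of this length, 58.0% held at least 1 ATTA on either strand and 20.0% held 3 or more. The cAMP response element TGACGTCA was in neither window on either strand and in 1.79% of promoters. The GC box GGGCGG matched 4 times in the Phox2a window and 0 times in the Dbh window, against 35.7% of promoters with at least 1 match on either strand. The GC content was 71.3% for Phox2a and 54.0% for Dbh, with a median of 52.7% over all promoters. These matches describe the letters in the windows and say nothing of binding.

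Slc6a2, Dbh and Phox2a were all higher in both FGR libraries than in the WT library, by about the same factor for the transporter and the enzyme and by much less for the transcription factor. Levels between libraries are given in CPM, reads scaled to library size with trimmed means (TMM), and fold changes as FGR over WT. These are the values for which the genes were chosen, so they are given as a description with no test.

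Slc6a2 (ENSMUSG00000055368.14) had 1899 and 1173 reads in the FGR libraries, or 32.7 and 25.7 CPM, against 137 reads or 2.55 CPM in WT. FGR replicate 1 was 12.9-fold above WT (exact 95% interval for counting error 10.8 to 15.4) and FGR replicate 2 was 10.1-fold above it (8.44 to 12.1). The FGR libraries stood apart from WT and also from each other, with replicate 1 at 1.28 times replicate 2 (1.19 to 1.37). Their mean was 29.2 ± 5.01 CPM (SD, n = 2).

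Dbh (ENSMUSG00000000889.8) had 316 and 241 reads in the FGR libraries, or 5.45 and 5.27 CPM, against 28 reads or 0.520 CPM in WT. The fold over WT was 10.5 in FGR replicate 1 (7.11 to 16.0) and 10.1 in FGR replicate 2 (6.84 to 15.6). The FGR libraries could not be told apart, at a ratio of 1.03 (0.871 to 1.23), and both lay far above WT.

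Phox2a (ENSMUSG00000007946.11) had 30 and 28 reads in the FGR libraries, or 0.517 and 0.613 CPM, against 13 reads or 0.242 CPM in WT. The fold over WT was 2.14 (1.08 to 4.47) and 2.54 (1.27 to 5.33). Both FGR libraries were above WT, but at this depth the size of the difference was known only to within several-fold. The annotation of GENCODE M21 places 95 of the 2035 exon bases of Phox2a, 4.67%, inside exons of Inppl1, a phosphatase gene on the other strand. No source says whether the strand was used in counting, so a few of these reads could belong to Inppl1, which had 787 and 672 reads in the FGR libraries and 839 in WT. Exons of Slc6a2 and Dbh overlapped no other annotated gene.

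**Figure D1:**
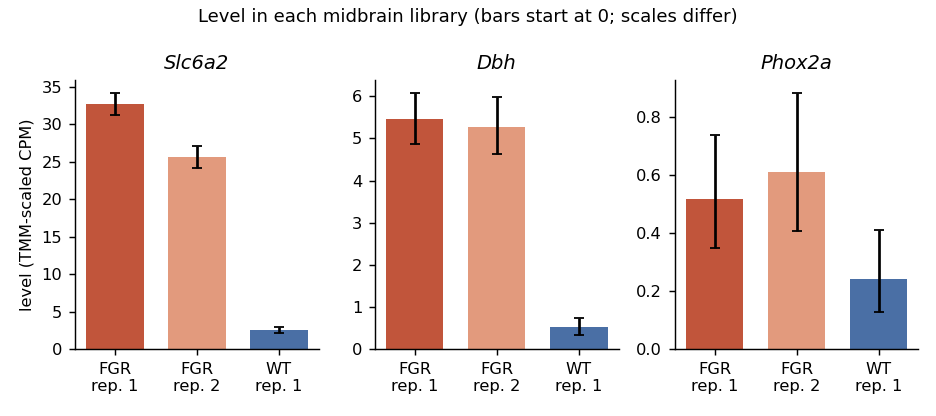
TMM-scaled CPM of Slc6a2, Dbh and Phox2a in each library, FGR replicates to the left of WT, with exact 95% Poisson intervals for counting error as bars. Slc6a2 and Dbh stand about 10-fold or more above WT in both FGR libraries, with intervals far apart, while the Phox2a intervals of both FGR libraries overlap that of WT.

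Ranked by fitted fold change among the 25561 genes that entered the test, Slc6a2 stood at 34, Dbh at 40 and Phox2a at 377. The share called by edgeR at a threshold of 0.05 on the adjusted p was 4.25%, made up of 1.66% higher in FGR and 2.59% lower. These shares are the background for the counts of called genes in each list below. Slc6a2 and Dbh were among those called and Phox2a was not, but since the genes were chosen on this contrast nothing is read from that. All 3 are autosomal. Xist was at 591.1 CPM in FGR replicate 1, 1.71 CPM in FGR replicate 2 and 541.2 CPM in WT, and FGR replicate 2 carried Y-linked transcripts, so the FGR pair differed in sex, and its spread holds that difference too.

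Compared per length, with the RPKM values the authors deposited, Slc6a2 was the most abundant of the 3 chosen genes and Phox2a the least in every library. Slc6a2 was at 5.17 and 4.03 RPKM in the FGR libraries and 0.412 RPKM in WT. Dbh was at 2.01 and 1.94 RPKM in FGR and 0.197 RPKM in WT, and Phox2a at 0.252 and 0.298 RPKM in FGR and 0.121 RPKM in WT.

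Ratios between genes inside a library do not depend on how the libraries were scaled. Per base of gene length, Slc6a2 stood to Dbh as 2.57 (2.28 to 2.91) and 2.08 (1.81 to 2.40) in the FGR libraries and as 2.09 (1.39 to 3.27) in WT. Both FGR ratios thus lay within the WT interval.

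As counted, Phox2a did not keep its proportion to the others. Its WT value rests on 13 reads, and any reads of Inppl1 among them, whose number is not known, are not covered by the intervals. Dbh stood to Phox2a as 7.96 (5.47 to 12.0) and 6.51 (4.39 to 9.999) in the FGR libraries and as 1.63 (0.816 to 3.42) in WT. The interval in WT includes 1, so there the order of Dbh and Phox2a was not resolved. Of the reads of the 3 chosen genes, Phox2a took 1.34% and 1.94% in the FGR libraries and 7.30% in WT, and Dbh took 14.1% and 16.7% in FGR and 15.7% in WT. The reads of the 3 genes summed to 2245 and 1442 in FGR and 178 in WT.

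**Figure D2:**
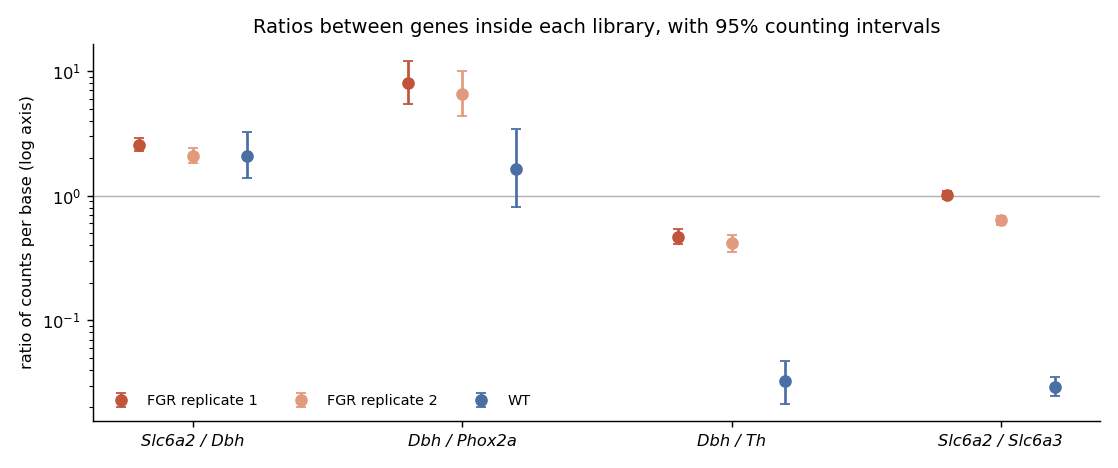
Ratio of counts per base between pairs of genes inside each library (log axis) with exact 95% binomial intervals for counting error, FGR replicates to the left of WT. The intervals for Slc6a2 to Dbh overlap between each FGR library and WT, and the ratios of Dbh to Phox2a, Dbh to Th and Slc6a2 to Slc6a3 are higher in both FGR libraries than in WT.

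The other genes that handle noradrenaline, many of them shared with other monoamine neurons, were not called, which says little for a list this short. Of the 11 other genes for synthesis, storage and breakdown of noradrenaline reported here, all entered the test. Among them edgeR called 0, against 4.25% of all tested genes. At an unadjusted p under 0.05 there were 4, and DESeq2, with or without its filter on mean counts, and limma-voom also called 0. With its filter DESeq2 gave 2 of the 11 no adjusted p. Their median log2 fold change was -0.03, and that of all tested genes was 0.01. In bulk tissue, fewer cells of a type and less RNA per cell cannot be told apart, and these genes sum over dopamine, serotonin and noradrenaline neurons.

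Th, the rate-limiting enzyme, was at 10.2 and 11.1 CPM in the FGR libraries and 14.1 CPM in WT, lower in both FGR libraries but not called (log2 fold change -0.40 ± 0.14 SE, edgeR adjusted p = 0.122). Ddc was at 27.2 and 23.5 CPM in FGR and 24.0 CPM in WT, so the FGR libraries lay on both sides close to WT. Slc18a2 was at 44.3 and 41.4 CPM in FGR and 37.4 CPM in WT (edgeR adjusted p = 0.213). Per base, Dbh stood to Th as 0.467 (0.406 to 0.536) and 0.417 (0.356 to 0.487) in FGR and as 0.0324 (0.0214 to 0.0473) in WT.

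Genes of the tetrahydrobiopterin cofactor of Th were not called either. Gch1, which starts its synthesis, was at 10.4 and 8.71 CPM in FGR and 9.53 CPM in WT. Pts was at 32.6 and 30.6 CPM in FGR and 34.3 CPM in WT, Spr at 9.36 and 8.49 CPM in FGR and 11.1 CPM in WT, and Qdpr at 15.6 and 15.8 CPM in FGR and 16.0 CPM in WT. Pnmt, which makes adrenaline from noradrenaline, had 56 and 52 reads in FGR and 37 in WT (edgeR adjusted p = 0.410).

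The monoamine oxidases, which break monoamines down, were somewhat lower in both FGR libraries without being called. Maoa, the form abundant in noradrenergic neurons, was at 67.5 and 62.8 CPM in FGR and 76.2 CPM in WT (edgeR adjusted p = 0.0719). It was called lower with scaling by library totals (adjusted p = 0.0311) and with no filter on low counts (adjusted p = 0.0293). Maob was at 2.69 and 2.91 CPM in FGR and 3.46 CPM in WT.

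**Figure D3:**
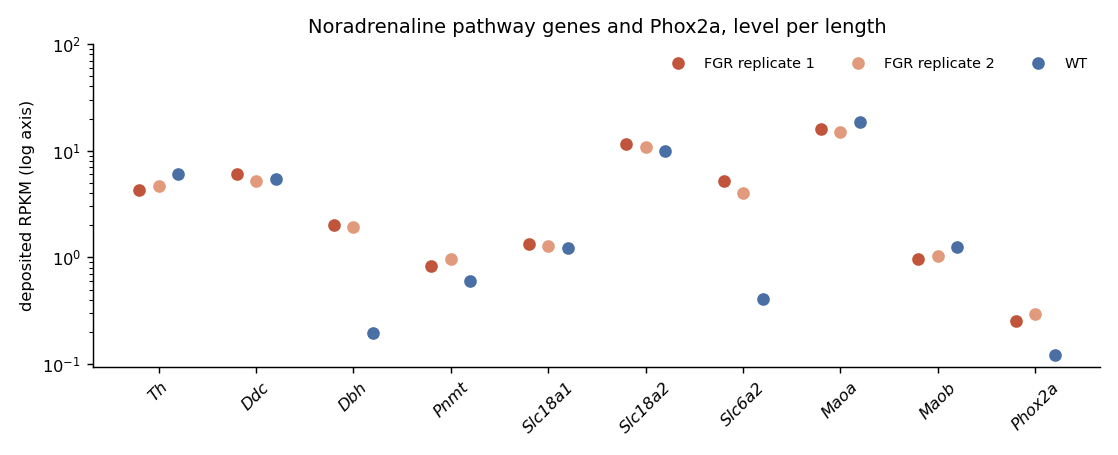
Deposited RPKM (log axis) of genes for synthesis, storage, uptake and breakdown of noradrenaline and of Phox2a, FGR replicates to the left of WT. Slc6a2 and Dbh lie about 10-fold above WT in both FGR libraries, while Th, Ddc, Slc18a2 and Maoa lie close together in all 3.

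Among 8 other transcription factors of noradrenergic specification reported here, 7 entered the test, and 1 rose and 0 fell, against 1.66% and 2.59% of all tested genes. The median log2 fold change of the 7 was 0.17. The factor that rose was Tfap2b, an AP-2 factor that the dorsal midbrain also expresses, at 131.6 and 107.7 CPM in FGR and 92.2 CPM in WT (edgeR adjusted p = 0.0415). The Tfap2b call was lost under a stricter filter, in a robust fit and in DESeq2 (adjusted p = 0.0942, 0.186 and 0.687).

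Tlx3, a homeobox factor that the locus coeruleus needs to form in mice, had 19 and 14 reads in FGR and 6 in WT, higher in both FGR libraries but not called (edgeR adjusted p = 0.360). Gata3 was at 15.1 and 14.4 CPM in FGR and 13.1 CPM in WT, and Gata2 at 4.93 and 5.18 CPM in FGR and 4.61 CPM in WT. These GATA factors also serve GABA and serotonin neurons of the brainstem. Lmx1b was at 5.10 and 4.83 CPM in FGR and 5.42 CPM in WT, and Insm1 at 5.97 and 7.92 CPM in FGR and 5.85 CPM in WT.

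Other genes enriched in the locus coeruleus were mostly lower in FGR. Of 14 such genes reported here, all tested and none of them among the 3 chosen, 0 rose, 2 fell and 12 were lower in both FGR libraries. The share of all tested genes with both FGR libraries below WT was 38.2%. This list is not separate from the others. It holds Th, Slc18a2 and Maoa of the pathway genes, Eya2 of the specification factors and Adra2a of the adrenergic receptors. Th, Maoa and Eya2 were among the 12 that were lower, and Slc18a2 was higher in both FGR libraries. The median log2 fold change of the 14 was -0.29, against 0.01 over all tested genes. DESeq2, with or without its filter on mean counts, called 0 of the 14, and with the filter it gave 2 of them no adjusted p. Several of the 14 were far more abundant than Dbh. Ntrk3 was at 180.9 and 167.9 CPM in FGR and 197.5 CPM in WT, and Cyb561 at 43.1 and 45.9 CPM in FGR and 52.1 CPM in WT. In bulk tissue their reads sum over all cells, and the part from the locus coeruleus was not tested. Gal, which encodes galanin, a peptide of both the locus coeruleus and the hypothalamus, fell to 0.586 and 0.591 CPM in FGR, against 1.52 CPM in WT (edgeR adjusted p = 0.0338, and 0.0585 under a stricter filter). The Gal call was also lost in DESeq2 without its filter, and with the filter Gal had no adjusted p. Gpx3, a secreted glutathione peroxidase, fell to 3.71 and 4.38 CPM in FGR, against 7.25 CPM in WT (edgeR adjusted p = 0.0115, and 0.179 in DESeq2). The orexin receptor gene Hcrtr1 was at 9.45 and 10.1 CPM in FGR and 13.4 CPM in WT, and Cartpt, a peptide gene, at 4.03 and 3.92 CPM in FGR and 5.78 CPM in WT, neither called (edgeR adjusted p = 0.0769 and 0.0893).

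Of 8 adrenergic receptor genes, on which noradrenaline acts, edgeR called 0, which says little when 4.25% of all tested genes were called. At an unadjusted p under 0.05 there was 1, and the median log2 fold change was -0.21. DESeq2, with or without its filter on mean counts, and limma-voom also called 0, though with its filter DESeq2 gave 4 of the 8 no adjusted p. Adra2a, the autoreceptor of noradrenergic neurons, was at 10.4 and 9.23 CPM in FGR and 9.90 CPM in WT. Adra1a was at 22.2 and 19.8 CPM in FGR and 19.8 CPM in WT, and Adra1b at 15.5 and 15.8 CPM in FGR and 18.9 CPM in WT. Adrb1 was at 2.38 and 1.71 CPM in FGR and 2.56 CPM in WT. Of 12 genes of the dense core vesicles that carry monoamines and peptides, Chga and Pcsk1n fell, 10 were not called and the median was -0.13. Both calls were lost in DESeq2 without its filter (adjusted p = 0.198 for Chga and 0.0681 for Pcsk1n), and that of Chga also with it (adjusted p = 0.087).

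Among genes of the other monoamine neurons of this region, several dopamine neuron genes fell and Tph2, Fev and Slc6a4 of serotonin neurons were not called. Slc6a3, the dopamine transporter, fell to 17.8 and 22.3 CPM in FGR, against 47.5 CPM in WT (log2 fold change -1.25 ± 0.12 SE, edgeR adjusted p = 4.21e-05). Per base, Slc6a2 stood to Slc6a3 as 1.01 (0.938 to 1.09) and 0.633 (0.582 to 0.689) in FGR and as 0.0294 (0.0246 to 0.0350) in WT. Of 14 dopamine neuron markers 5 fell (Slc6a3, Nr4a2, Lmx1a, Foxa1 and Aldh1a1) and En1 rose. In DESeq2 the calls of Nr4a2, Lmx1a and Aldh1a1 were lost (adjusted p = 0.187, 0.07 and 0.165), as was that of Foxa1 without the filter on mean counts (adjusted p = 0.225). Those of Nr4a2 and Aldh1a1 were also lost under the stricter filter (adjusted p = 0.0856 and 0.101), and only Slc6a3 of the 5 was called lower under every alternative. For serotonin neurons, Slc6a4, their transporter, was at 24.7 and 20.5 CPM in FGR and 20.4 CPM in WT, and Tph2, their synthesis enzyme, at 26.6 and 19.5 CPM in FGR and 17.7 CPM in WT (edgeR adjusted p = 0.605 and 0.203). Of 11 serotonin markers 1 rose, again En1, and 0 fell. Without regard to calls, 8 of the 11 were higher and 2 lower in both FGR libraries, against 38.5% and 38.2% of all tested genes. However, Slc18a2, Ddc, Maob, Gata2, Gata3 and Lmx1b of the 11 were also counted in the noradrenergic lists above. Slc18a2, Gata2 and Gata3 were among the 8, and Lmx1b and Maob were the 2, so these counts are not particular to serotonin neurons. The dopamine list likewise holds Th, Ddc and Slc18a2.

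**Figure D4:**
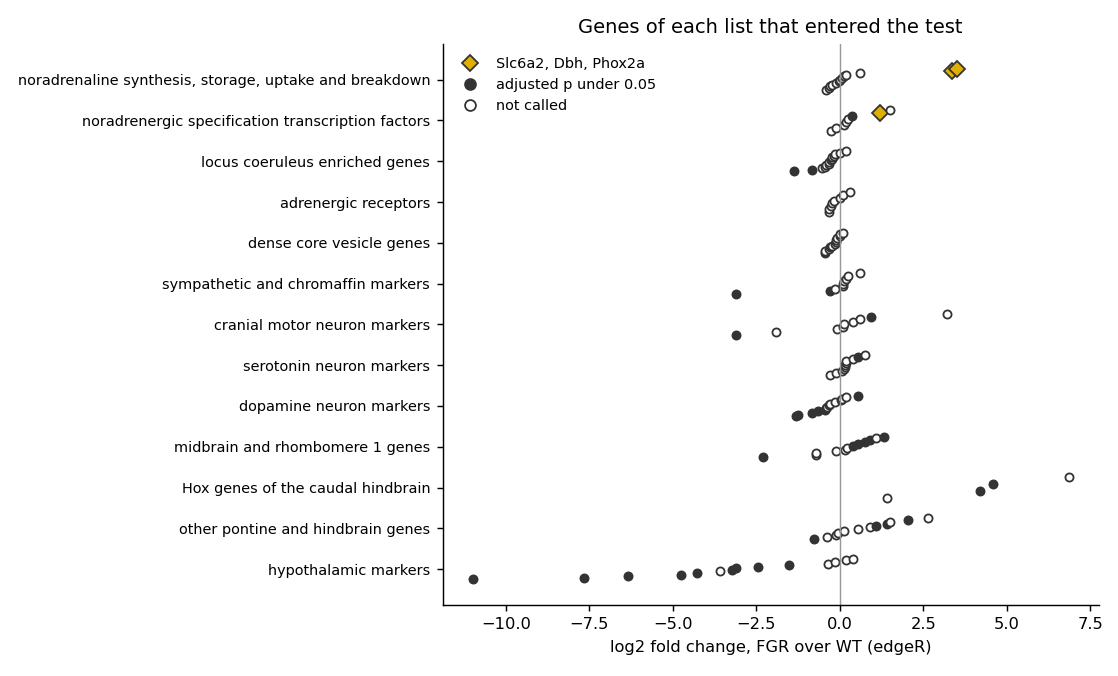
Fitted log2 fold change, FGR over WT, of the genes of each list that entered the test, with 1 point per gene, diamonds for Slc6a2, Dbh and Phox2a, and filled circles for other genes at an adjusted p under 0.05. Slc6a2, at 3.52, and Dbh, at 3.36, lie far to the right, and Hoxa2, at 4.21, Hoxb3, at 4.60, and Hoxb2, at 6.86, lie further right. The other noradrenaline pathway genes lie near 0, and hypothalamic genes reach far to the left. The position of a gene with 0 reads in 1 group, such as Hoxb2, depends on the prior count of the fit.

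Some genes of neighbouring regions differed between FGR and WT too, in both directions. The 14 Hox genes examined, which mark the hindbrain behind the territory that gives rise to the locus coeruleus, summed to 117 and 143 reads in the FGR libraries and 13 in WT, where 9 of them were at 0. Hoxa2 had 52 and 25 reads in FGR and 2 in WT, and Hoxb2 had 12 and 16 in FGR and 0 in WT. Of the 4 that could be tested, Hoxa2 and Hoxb3 rose, calls lost in limma-voom (adjusted p = 0.0586 and 0.239) and in DESeq2 without its filter (adjusted p = 0.173 and 0.0925). That of Hoxb3 was also lost under the stricter filter and in the robust fit (adjusted p = 0.104 and 0.571). Rln3, which encodes a relaxin peptide of the nucleus incertus in the pons, had 104 and 79 reads in FGR and 23 in WT (edgeR adjusted p = 0.00432). Of 13 other pontine and hindbrain genes, which include Rln3, 12 were tested, of which Rln3, Skor1 and Slc6a5 rose, Ntsr1 fell and 8 were not called. The Skor1 call was lost under the stricter filter, in the robust fit, in limma-voom and in DESeq2 without its filter (adjusted p = 0.0855, 0.0925, 0.0657 and 0.321), and that of Ntsr1 in DESeq2 (adjusted p = 0.155). Slc6a5, the glycine transporter of brainstem and spinal neurons, rose to 8.52 and 8.31 CPM in FGR, against 3.98 CPM in WT (edgeR adjusted p = 0.00193).

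Of 14 genes of the midbrain and its border with rhombomere 1, 12 were tested, of which En1, En2, Otx2, Cnpy1 and Barhl1 rose, Gbx2 fell and 6 were not called. The Otx2 call was lost in DESeq2 (adjusted p = 0.0921), and that of Cnpy1 in the robust fit and in DESeq2 without its filter (adjusted p = 0.381 and 0.0548). En2 was at 40.1 and 37.4 CPM in FGR and 20.9 CPM in WT, and En1, whose call was lost with scaling by library totals, under the stricter filter and in DESeq2 (adjusted p = 0.052, 0.0883 and 0.242), at 14.4 and 13.2 CPM in FGR and 9.53 CPM in WT. Both engrailed genes also serve dopamine neurons, and with Otx2 at 46.5 and 43.4 CPM in FGR and 33.9 CPM in WT these midbrain genes were well detected in all 3 libraries. The 14 hypothalamic markers, from tissue in front of the midbrain, summed to 18.4 and 18.8 CPM in FGR and 61.5 CPM in WT, with 9 called lower, 3 in DESeq2 (which gave 9 of the 14 no adjusted p) and 0 called higher, and Oxt and Nkx2-4 were at 0 in both FGR libraries. The part of these regional differences in the levels of Slc6a2, Dbh and Phox2a was not tested.

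Markers of sympathetic and cranial motor neurons, some of which also use Phox2a, had few reads or were not called higher, apart from Lhx4. For lists this short that says little, when edgeR called 1.66% of all tested genes higher. Hand2, which marks sympathetic neurons and chromaffin cells, had 0 reads in all 3 libraries, and Hand1 had 0 and 2 reads in FGR and 0 in WT. Prph, an intermediate filament of peripheral and motor neurons, was at 7.10 and 4.79 CPM in FGR and 5.59 CPM in WT. Of the 11 sympathetic and chromaffin markers, 9 were tested, 0 rose, Isl1 and Chga fell, and the list summed to 146.8 and 147.9 CPM in FGR and 175.5 CPM in WT. Chga, also counted with the dense core vesicle genes, made up most of these sums, at 104.06 and 103.78 CPM in FGR and 127.35 CPM in WT. Chat, the acetylcholine synthesis gene of motor neurons, had 42 and 36 reads in FGR and 37 in WT. Of 11 cranial motor neuron markers reported here, 9 were tested, with Lhx4 higher, a call lost under the stricter filter and in DESeq2 (adjusted p = 0.0816 and 0.238), and Isl1 lower. Tbx20, a factor of branchial and visceral motor neurons, had 33 and 6 reads in FGR and 2 in WT (edgeR adjusted p = 0.156), and Hoxb1 had 0 in all 3. Without regard to calls, 5 of the 11 motor neuron markers were higher and 3 lower in both FGR libraries. Slc5a7 was among the 5, at 11.8 and 10.3 CPM in FGR and 8.40 CPM in WT (edgeR adjusted p = 0.164). The motor neuron list summed to 29.6 and 23.8 CPM in FGR and 29.5 CPM in WT.

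No gene next to Slc6a2, Dbh or Phox2a on its chromosome was called, which says little for 12 genes when 4.25% of all tested genes were called. Taking the 2 nearest tested protein-coding genes on each side in RefSeq's gene order gave 12 genes, a set added after the values were seen. Of these edgeR, DESeq2 (with or without that filter) and limma-voom called 0, and 2 had an unadjusted edgeR p under 0.05, with log2 fold changes from -1.45 to 0.25. Beside Dbh, Sardh was at 11.8 and 13.5 CPM in FGR and 13.8 CPM in WT, and Fam163b at 3.40 and 2.82 CPM in FGR and 3.98 CPM in WT. Beside Slc6a2, Lpcat2 was at 5.98 and 5.67 CPM in FGR and 6.30 CPM in WT. Beside Phox2a, Clpb was at 52.9 and 53.1 CPM in FGR and 56.4 CPM in WT.

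The genes whose profile was most like that of the 3 chosen genes were found by the distance between their log2 ratios to WT in both FGR libraries and the mean ratios of the 3, which were 2.55 and 2.49 on the log2(CPM + 0.1) scale. Among tested genes with a mean of at least 0.5 CPM, and leaving out predicted genes, the nearest of those reported here were Tcf24 (distance 0.627), Rln3 (0.989), Hoxb3os (1.17), Hoxb3 (1.49), Stra6l (1.55), Drd4 (1.58), Igfbpl1 (1.61) and Myh8 (1.63). Of these Drd4 was not called (edgeR adjusted p = 0.0732), and Hoxb3os, a transcript of the Hoxb3 locus, may share reads with Hoxb3. The mean sits between Phox2a, at 0.85 and 1.06, and the pair of Slc6a2, at 3.63 and 3.28, and Dbh, at 3.16 and 3.11. The Hox pair differed from the chosen genes in that FGR replicate 2 was well above replicate 1, with Hoxb3 at 19 and 75 reads in FGR and 2 in WT. The ratios share the 1 WT library, and a likeness over 3 libraries is a description.

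**Figure D5:**
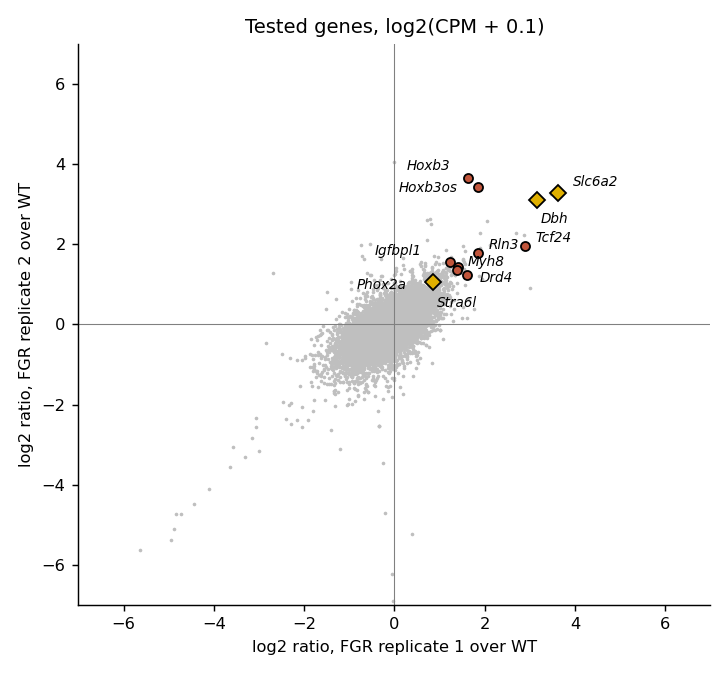
Log2 ratio of FGR replicate 1 to WT (x) and of FGR replicate 2 to WT (y) on the log2(CPM + 0.1) scale for tested genes with a mean of at least 0.25 CPM (grey; 5 genes lie outside the axes), with Slc6a2, Dbh and Phox2a as diamonds and 8 of the most similar genes as circles. Both axes share the WT library; Slc6a2 and Dbh lie together at the upper right and Phox2a near the edge of the main cloud.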

How the data were processed

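Deposited files gave, per gene, a raw read count and an RPKM value, both made by the authors; per the submitters' processing notes HISAT2 was used, and its version, the genome build, the counting tool and strandedness are not stated in the sources used here. The deposited gene length, in another column (bases), together with count and total gave the authors' RPKM to within 0.0005%. Total counts were 58444481 and 46240262 in FGR and 52874311 in WT. The tests used edgeR 4.0.16 under R 4.3.3 (filterByExpr, at least 10 counts, TMM, two-sided quasi-likelihood F test, Benjamini-Hochberg over 25561 genes, threshold 0.05; 1 residual degree of freedom, from the FGR pair, so WT was assumed to vary like FGR). Standard errors are the log2 fold change over the square root of F. The test was tried on simulated data. Members, 15 gene lists and the rule for named genes (list members with defining roles, the most abundant and the smallest p-values, and the 8 nearest profiles) were chosen with earlier results of these data known; the hypothalamic list was added after the values were seen. Some genes of the lists and of the nearest profiles are not reported here, and counts over lists leave them out. Intervals cover counting error only. Alternatives were other scalings, filters, DESeq2 1.42.0, limma-voom (limma 3.58.1), a robust fit and removal of each FGR library; DESeq2 without its filter on mean counts was added after seeing the data. Promoter sequences are RefSeq's, GRCm38.p6, and the build of the files is unknown.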

Additional observations from a re-analysis of the deposited data

How the results depend on the processing

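The direction of Slc6a2, Dbh and Phox2a was the same under all 8 alternatives: fitted log2 fold changes ranged from 3.48 to 3.52 for Slc6a2, 3.32 to 3.36 for Dbh and 1.17 to 1.22 for Phox2a. For Dbh the value was 3.32 with libraries scaled by their totals. With 1 FGR library set against WT, a value with no test and no count of calls, Dbh was at 3.33 to 3.38, Slc6a2 at 3.32 to 3.68 and Phox2a at 1.09 to 1.32. The count of called genes was 1087, against 2057 with no filter, 600 with the stricter filter, 358 in DESeq2 and 286 in DESeq2 without its filter. Of the other noradrenaline pathway genes, 1 was called with total scaling and 1 with no filter, Maoa in both. Of the other transcription factors, 1 was called, Tfap2b, against 0 with the stricter filter, 0 in the robust fit, 0 in DESeq2 and 0 in DESeq2 without its filter. Of the 32 other genes of the lists that were called, 11 were called under each of the 8 alternatives that gave them an adjusted p. Without the DESeq2 filter the call of Rln3 was also lost (adjusted p = 0.155). No paired analysis was possible because the groups share only replicate number 1. Depth limits Phox2a most, with 13 to 30 reads a library.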
